A study of Homo sapiens
Mus musculus with 6 samples.

Results

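Described here are 42 genes of the sarcomere and of excitation-contraction coupling, measured in mouse C2C12 myoblasts in co-culture with human cells. They were chosen by name, as the rows of the mouse gene table whose symbol stood on a fixed list, and make up 42 of 23433 mouse entries. Of the 42 genes, 36 had at least 30 reads over the 6 wells, and the same 36 passed the filter on low counts and were tested. The other 6 were Myh2 with 5 reads, Myh8 with 14, Mybpc1 with 2, Actn2 with 15, Tcap with 17 and Cav3 with 12. The nearest gene inside the read minimum was Myh7 with 40 reads, and the nearest outside it was Tcap. By role the 42 comprised 13 genes of the thin filament, 11 of the thick filament, 9 of the Z-disc, M-band and titin, 3 chaperones and energy genes, and 6 of excitation-contraction coupling.

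RNA was sequenced from 6 wells, each with mouse C2C12 cells, a line derived from skeletal muscle precursors, and human HEK293-Flp-In cells, an embryonic kidney line. The mouse cells were either the C2C12-control line or the C2C12-Notch1 line, which carries full-length Notch1 and was kept under puromycin. The human cells were HEK-control, HEK-Jag1WT, which carries the wild-type Notch ligand Jag1, or HEK-Jag1Ndr, which carries the Nodder form of Jag1, and both Jag1 lines were kept under hygromycin. Each of the 6 combinations had 1 well. All mouse cells, the control line included, had been transfected with 1.6 ug of the empty plasmid pcDNA5 and later shared the well with the HEK cells for 6 h. Times of 8 h for settling and 18 h after transfection applied to all 6 wells. The labels name no step in differentiation medium. Whether the C2C12-Notch1 line is 1 clone or which promoter drives its Notch1 is not given in the sources used here. Notch1 cannot be told apart from the selection and history of that line.

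The sarcomere is the repeating contractile unit of striated muscle. Myosin heavy and light chains form the thick filament and pull on actin, and tropomyosin with the troponin complex covers or exposes actin according to calcium. Z-discs anchor the thin filaments, the M-band holds the thick filaments, and titin spans from one to the other. In excitation-contraction coupling, a voltage sensor in the surface membrane opens the ryanodine receptor, which releases calcium from the sarcoplasmic reticulum. Myoblasts hold low amounts of most of these transcripts and raise them when they leave the cell cycle, fuse and become myotubes, and Notch signalling is known for holding that step back.

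The wells held between 2263529 and 7965231 mouse reads, and the mouse share of all gene reads was 49.8% ± 2.76 in the control-line wells and 33.2% ± 3.46 in the Notch1-line wells (SD, n = 3 each). Notch1 itself was 3.62 higher on the log2 scale in the Notch1 line (SE 0.29, edgeR adjusted p = 0.00859). The myoblast markers summed to between 1263 and 1601 RPKM in the control-line wells and to between 1343 and 1598 RPKM in the Notch1-line wells. At an edgeR adjusted p under 0.05, 3 of the 6 markers were higher in the Notch1 line and 1, Des, was lower. Of all tested genes 28.4% were higher and 29.4% lower. Cdh15, the cadherin of myoblasts, stood between 189.9 and 698 RPKM and was 0.65 higher in the Notch1 line (log2). With HEK-Jag1WT against HEK-control, 3 of the 6 were higher, Cdh15 by 1.18, and 2 lower (2.7% and 1.76% of all tested genes). RPKM is a read count scaled to the length of the gene and to the size of that species' library. In each list of 3 values below, the order of the wells is HEK-control, HEK-Jag1WT and HEK-Jag1Ndr.

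Sarcomere transcripts were present in both lines at very unequal levels. Over the 6 wells the most abundant was Tpm1, the alpha-tropomyosin gene, at a mean of 667 RPKM, above 99.6% of the 11365 tested mouse genes. Des (desmin, the intermediate filament around the Z-disc) stood above 99.3% of them, Tnnt2 (cardiac troponin T, also made in embryonic skeletal muscle) above 97.9% and Mylpf (the fast skeletal regulatory light chain) above 96.4%. At the other end, the giant genes Ttn and Neb, the adult myosins Myh4 and Myh7, and Trdn all lay near or below 1 RPKM. Tpm1 and Tpm2 also encode non-muscle isoforms, and each gene has 1 value for all of them.

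**Figure D1:**
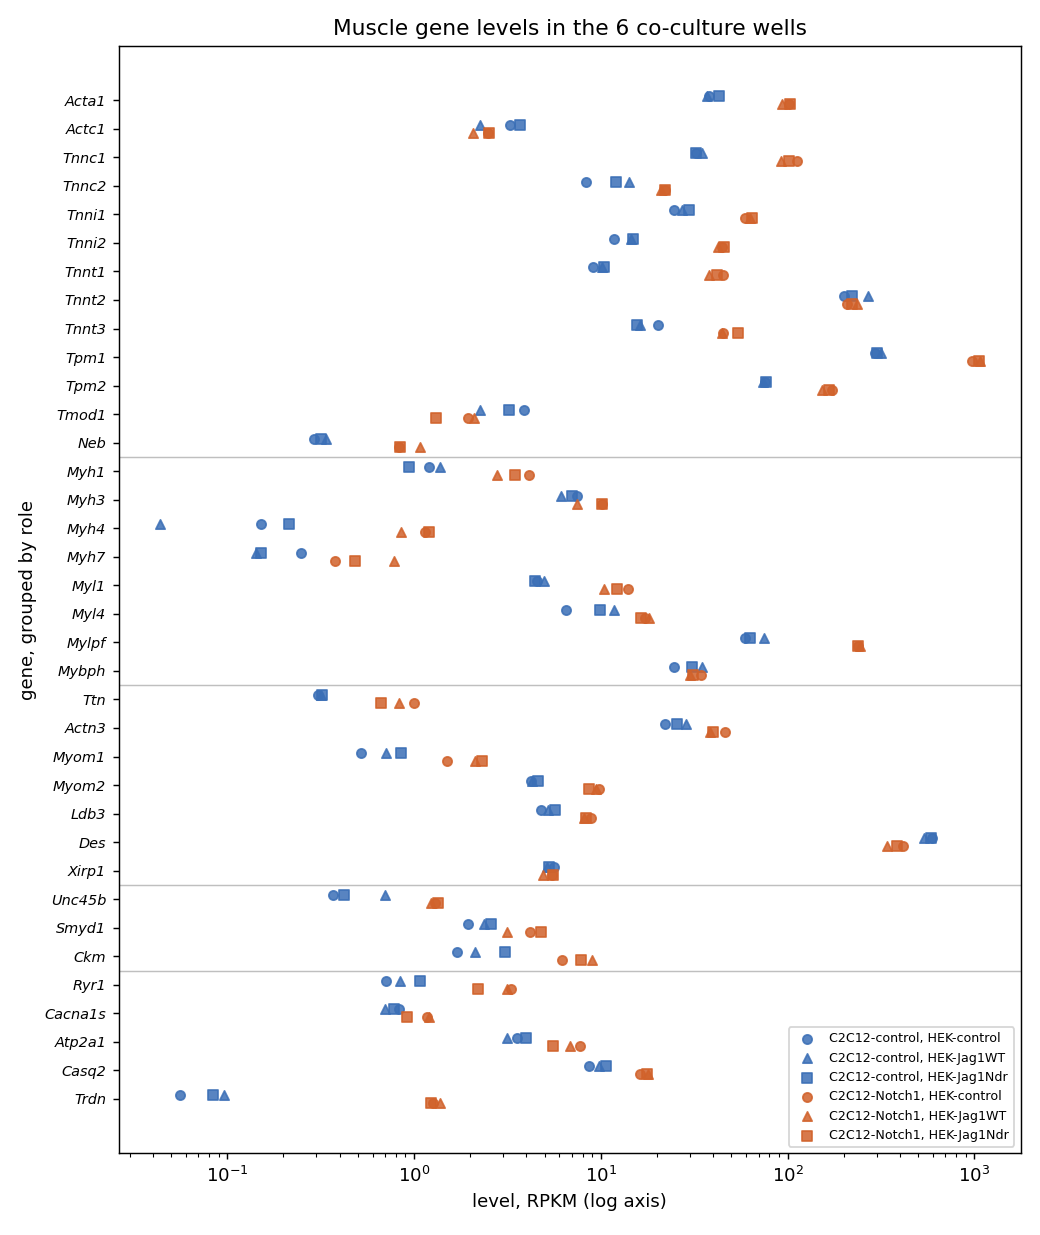
RPKM of the 36 genes with at least 30 reads in each of the 6 wells, on a log axis, grouped by role, with the C2C12-control and C2C12-Notch1 wells in different colours. For most genes the 3 Notch1-line points sit to the right of the 3 control-line points, while Des and Tmod1 lie the other way and Actc1, Tnnt2, Myh3, Mybph and Xirp1 overlap.

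The first comparison was between the mouse lines. In the Notch1 line 29 of the 36 tested genes were higher, 2 were lower (Des and Tmod1) and 5 did not pass the test (Actc1, Tnnt2, Mybph, Xirp1 and Cacna1s). Over all 11365 mouse genes tested the same comparison called 57.8%, of which 28.4% of genes were higher and 29.4% lower, so a call in either direction was common in this comparison. The median difference of the 36 genes was 1.24 on the log2 scale against 0.0026 for all tested genes, and the 36 ranged from -0.91 to 3.92. Genes passed the test at an adjusted p under 0.05 in edgeR's quasi-likelihood test with a term for each line over all 6 wells. The labels do not name separate cultures, so these p-values measure only the spread between wells, which may be technical. Of the 36 genes, 31 reached the count filter in at least 2 control-line wells and all 36 in the Notch1 line. Myh4, Myh7, Unc45b, Ckm and Trdn passed it only through the Notch1 line, so a difference in that direction was built into their selection. In bulk wells like these, fewer cells of a type and less RNA per cell cannot be told apart.

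The wells themselves separated in the same way. In 29 genes every Notch1-line well lay above every control-line well in RPKM, in 2 every Notch1-line well lay below, and in 5 the lines overlapped (Actc1, Tnnt2, Myh3, Mybph and Xirp1). Over all tested genes 29.7% lay above without overlap and 28.6% below. Matched by HEK line, 30 genes were higher in the Notch1 line in all 3 pairs of wells, 3 were lower in all 3 (Des, Tmod1 and Actc1) and 3 were mixed (Tnnt2, Mybph and Xirp1). The median over the 36 genes was 1.22 in the pair with HEK-control, 1.14 with HEK-Jag1WT and 1.07 with HEK-Jag1Ndr, on the log2 scale. In 23 genes the 95% counting interval lay above 0 in all 3 pairs. These counts over pairs were made for the 36 genes only, so no share of all mouse genes stands beside them.

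**Figure D2:**
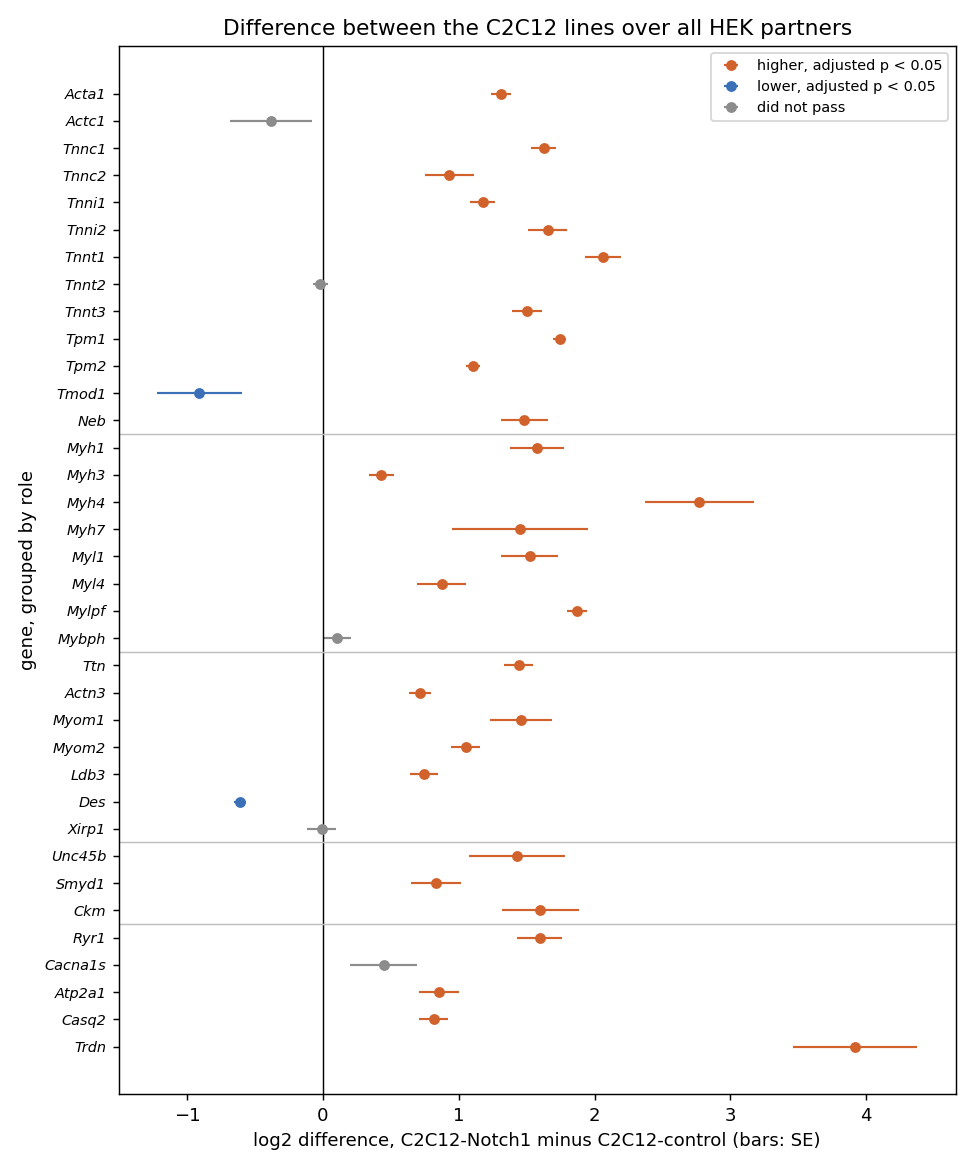
Log2 difference, C2C12-Notch1 line against C2C12-control line, for each of the 36 tested genes by role, with bars of 1 SE from the edgeR fit over 6 wells. Orange points were higher and blue points lower at an adjusted p under 0.05, and grey points did not pass. Trdn lies farthest right at 3.92, and Tmod1 at -0.91 and Des at -0.61 are the called genes to the left of 0.

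Thin filament genes were higher in the Notch1 line in 10 of 13 cases and lower in 1, with a median difference of 1.31. Acta1, the skeletal muscle actin, stood at 38.1, 37.2 and 42.9 RPKM in the control-line wells and at 101, 93.6 and 102 RPKM in the Notch1-line wells. Actc1, the cardiac actin that embryonic skeletal muscle also makes, stood at 3.24, 2.26 and 3.70 RPKM in the control line and 2.49, 2.07 and 2.53 RPKM in the Notch1 line. The actins thus differed: Acta1 separated cleanly, by 1.31 (log2, SE 0.071, edgeR adjusted p = 1.27e-23), whereas Actc1 overlapped between the lines and did not pass (-0.38, SE 0.30, edgeR adjusted p = 0.284). The actin genes are close in sequence, and how reads that match several of them were counted is not given in the sources used here, so the division of reads between actins is uncertain.

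Tropomyosin lies along actin and blocks the myosin sites at rest. Tpm1 was at 296, 315 and 301 RPKM in the control line and at 974, 1066 and 1053 RPKM in the Notch1 line. Tpm2, the beta-tropomyosin gene, was at 75.9, 74.1 and 77.0 RPKM and 172, 153 and 167 RPKM respectively. Neither gene's wells overlapped between the lines, and Tpm1 differed by 1.74 on the log2 scale (SE 0.046, edgeR adjusted p = 1.24e-38) and Tpm2 by 1.10 (SE 0.053, edgeR adjusted p = 4.75e-26). Tmod1, tropomodulin, which caps the pointed end of the thin filament, went the other way. It stood at 3.87, 2.25 and 3.24 RPKM in the control line and at 1.94, 2.09 and 1.31 RPKM in the Notch1 line, 0.91 lower on the log2 scale (SE 0.31, edgeR adjusted p = 0.0111). That call rests on 115 reads and was lost when any one of 4 wells was left out: C2C12-control with HEK-control (adjusted p = 0.104) or with HEK-Jag1Ndr (0.162), and C2C12-Notch1 with HEK-control (0.094) or with HEK-Jag1Ndr (0.164). It was also lost in DESeq2 (adjusted p = 0.282).

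The troponin complex has a calcium-binding subunit (C), an inhibitory subunit (I) and a tropomyosin-binding subunit (T), each with slow or fast muscle genes. Tnnc1, the slow and cardiac troponin C, was at 32.4, 34.6 and 32.3 RPKM in the control line and 113, 92.6 and 102 RPKM in the Notch1 line. Tnnc2, the fast form, was at 8.33, 14.1 and 12.1 RPKM and then 22.1, 21.1 and 22.2 RPKM. Tnni1, the slow troponin I, was at 24.6, 27.1 and 29.7 RPKM and then 59.0, 63.0 and 64.7 RPKM. All of these separated the lines without overlap. Tnni2, the fast troponin I, went from 11.8, 14.4 and 14.9 RPKM in the control line to 44.8, 42.5 and 45.6 RPKM in the Notch1 line. The log2 differences were 1.62 for Tnnc1 (SE 0.095), 0.93 for Tnnc2 (SE 0.18), 1.18 for Tnni1 (SE 0.090) and 1.66 for Tnni2 (SE 0.14), and the largest of their edgeR adjusted p values was 1.52e-05. Slow and fast forms were thus both higher.

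Among the troponin T genes the most abundant one did not pass the test. Tnnt2 stood at 201, 270.0 and 220.0 RPKM in the control line and at 208, 235 and 222 RPKM in the Notch1 line. Those wells overlapped, and the log2 difference was -0.02 (SE 0.053, edgeR adjusted p = 0.782). Tnnt1, the slow skeletal form, was at 9.12, 10.2 and 10.3 RPKM in the control line and 45.2, 38.2 and 41.8 RPKM in the Notch1 line, differing on the log2 scale by 2.06 (SE 0.13, edgeR adjusted p = 2.85e-20). Tnnt3, the fast skeletal form, was at 20.3, 16.2 and 15.7 RPKM and 45.3, 44.3 and 54.6 RPKM, differing by 1.50 (SE 0.11, edgeR adjusted p = 1.93e-17). Neb encodes nebulin, the ruler protein along the thin filament. It was at 0.292, 0.338 and 0.319 RPKM in the control line and 0.835, 1.07 and 0.838 RPKM in the Notch1 line, 1.48 higher on the log2 scale (SE 0.17, edgeR adjusted p = 1.11e-10).

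Of the 11 thick filament genes, 8 were tested, 7 were higher in the Notch1 line and none was lower, with a median difference of 1.49. Myh4 and Myh7 count among these, but had entered the test only through the Notch1-line wells, which built in their direction. Myh3, the embryonic myosin heavy chain, was the most abundant of the listed heavy chains in both lines. It was at 7.48, 6.12 and 7.05 RPKM in the control line and 10.2, 7.46 and 10.1 RPKM in the Notch1 line. Its difference was 0.43 (log2, SE 0.090, edgeR adjusted p = 4.81e-05), and the lowest Notch1-line well, with HEK-Jag1WT, lay just under the highest control-line well. Myh1, an adult fast heavy chain, was at 1.21, 1.38 and 0.941 RPKM and 4.13, 2.78 and 3.47 RPKM, a larger difference of 1.58 (SE 0.20, edgeR adjusted p = 9.1e-10). Myh4, the fastest adult heavy chain, was at 0.152, 0.0436 and 0.215 RPKM in the control line and 1.14, 0.848 and 1.21 RPKM in the Notch1 line, 2.77 higher on the log2 scale (SE 0.40, edgeR adjusted p = 3.35e-08). Behind those values were 13 reads over the control-line wells and 63 over the Notch1-line wells, a ratio in RPM (reads scaled only to the size of the mouse library) of 7.02 with an exact 95% counting interval from 3.82 to 13.9. Myh7, the slow and cardiac heavy chain, was at 0.247, 0.142 and 0.151 RPKM and 0.380, 0.777 and 0.485 RPKM, from 14 and 26 reads. Its ratio in RPM was 2.69 (95% counting interval 1.35 to 5.57), and its call was lost without C2C12-control with HEK-Jag1WT (adjusted p = 0.133) or HEK-Jag1Ndr (0.108) and without C2C12-Notch1 with HEK-Jag1WT (0.134) or HEK-Jag1Ndr (0.112). The Myh7 call was also lost in DESeq2 (adjusted p = 0.199) and in limma on log2(RPKM + 1) (0.0624). Myh1, Myh2, Myh4 and Myh8 are neighbouring, near-identical genes, and the sources used here do not say how their shared reads were divided.

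The light chains sit on the myosin neck. Mylpf was at 58.9, 75.2 and 63.1 RPKM in the control line and at 239.5, 244 and 238 RPKM in the Notch1 line, differing on the log2 scale by 1.87 (SE 0.071, edgeR adjusted p = 8.92e-31). Myl1, the fast essential light chain, was at 4.58, 4.98 and 4.46 RPKM and 14.03, 10.5 and 12.2 RPKM, differing by 1.52 (SE 0.21, edgeR adjusted p = 1.1e-08). Myl4, the essential light chain of atrium and embryonic muscle, was at 6.53, 11.8 and 9.94 RPKM and 17.3, 18.0 and 16.5 RPKM, differing by 0.88 (SE 0.18, edgeR adjusted p = 3.64e-05). All 3 light chain genes separated the lines without overlap. Mybph, a myosin-binding protein, was at 24.7, 34.9 and 30.9 RPKM in the control line and 34.3, 30.2 and 31.3 RPKM in the Notch1 line. These wells overlapped and the difference of 0.10 (log2, SE 0.10) did not pass (edgeR adjusted p = 0.417).

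Of the 9 genes of the Z-disc, M-band and titin, 7 were tested, 5 were higher in the Notch1 line and 1 was lower, with a median of 0.74. Ttn, which encodes titin, the spring that centres the thick filament, was at 0.308, 0.316 and 0.323 RPKM in the control line and 1.00, 0.836 and 0.667 RPKM in the Notch1 line (1.44, SE 0.10, edgeR adjusted p = 8.44e-15). Myom1, a myomesin that cross-links thick filaments at the M-band, was at 0.518, 0.712 and 0.849 RPKM and 1.50, 2.12 and 2.32 RPKM, 1.46 higher on the log2 scale (SE 0.23, edgeR adjusted p = 2.51e-07). Myom2, its relative in fast fibres, was at 4.22, 4.30 and 4.60 RPKM and 9.78, 9.43 and 8.64 RPKM, 1.05 higher (SE 0.10, edgeR adjusted p = 7.04e-13). Both M-band genes separated the lines without overlap. Actn3, the fast-fibre alpha-actinin that cross-links actin at the Z-disc, was at 22.0, 28.6 and 25.5 RPKM in the control line and 46.5, 38.6 and 40.0 RPKM in the Notch1 line, 0.72 higher (SE 0.081, edgeR adjusted p = 1.42e-09). Ldb3, a PDZ and LIM domain protein of the Z-disc, was at 4.78, 5.20 and 5.72 RPKM and 8.84, 8.15 and 8.36 RPKM, 0.74 higher (SE 0.10, edgeR adjusted p = 1.36e-08).

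Desmin stood apart from these. Des was at 593, 538 and 589 RPKM in the control line and at 415, 339 and 384 RPKM in the Notch1 line, with no overlap, 0.61 lower on the log2 scale in the Notch1 line (SE 0.045, edgeR adjusted p = 8.97e-18). Xirp1, an actin-binding protein of adhesion sites, was at 5.60, 5.17 and 5.28 RPKM and 5.50, 4.93 and 5.57 RPKM, and its difference of -0.01 (SE 0.11) did not pass (edgeR adjusted p = 0.939). Des is already high in undifferentiated myoblasts, unlike most filament genes.

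All 3 genes for chaperones and energy were higher in the Notch1 line, but Unc45b and Ckm had entered the test only through that line's wells. Unc45b, the chaperone that folds the myosin head, was at 0.368, 0.700 and 0.424 RPKM in the control line and 1.30, 1.24 and 1.34 RPKM in the Notch1 line, 1.43 higher on the log2 scale (SE 0.35, edgeR adjusted p = 0.000481). Smyd1, a muscle methyltransferase needed for myofibril assembly, was at 1.94, 2.38 and 2.57 RPKM and 4.196, 3.13 and 4.78 RPKM, 0.83 higher (SE 0.19, edgeR adjusted p = 0.000118). In DESeq2 the adjusted p of Unc45b was 0.0742 and that of Smyd1 0.0632, so neither passed there. Ckm, the muscle creatine kinase that buffers ATP and a late marker of differentiation, was at 1.69, 2.13 and 3.06 RPKM in the control line and 6.18, 8.95 and 7.83 RPKM in the Notch1 line, 1.60 higher (SE 0.29, edgeR adjusted p = 3.36e-06).

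Of the 6 excitation-contraction genes, 5 were tested and 4 were higher in the Notch1 line, with a median of 0.86. Ryr1, the calcium release channel of the sarcoplasmic reticulum, was at 0.710, 0.838 and 1.08 RPKM in the control line and at 3.29, 3.14 and 2.20 RPKM in the Notch1 line, 1.59 higher (SE 0.17, edgeR adjusted p = 3.95e-07). Cacna1s, the voltage sensor that opens it, was at 0.831, 0.700 and 0.781 RPKM and 1.17, 1.204 and 0.916 RPKM. The lines did not overlap in Cacna1s RPKM, but the difference of 0.45 (SE 0.25) did not pass (edgeR adjusted p = 0.12). Atp2a1, the pump that returns calcium to the reticulum in fast fibres, was at 3.55, 3.13 and 3.995 RPKM and 7.71, 6.86 and 5.56 RPKM, 0.86 higher (SE 0.15, edgeR adjusted p = 2.07e-06). Casq2, a calsequestrin that stores calcium there, was at 8.67, 9.73 and 10.6 RPKM and 16.2, 18.0 and 17.7 RPKM, 0.81 higher (SE 0.10, edgeR adjusted p = 1.09e-09). Ryr1, Atp2a1 and Casq2 were thus all higher, without overlap. Atp2a2, a more abundant calcium pump gene outside the 42, did not pass (0.09, edgeR adjusted p = 0.112). It was at 73.0, 67.7 and 70.1 RPKM in the control line and 76.0, 71.8 and 77.1 RPKM in the Notch1 line. Trdn encodes triadin, which ties calsequestrin to the release channel, and it too was tested only through the Notch1-line wells. It stood at 0.0555, 0.0959 and 0.0834 RPKM in the control line and 1.26, 1.37 and 1.24 RPKM in the Notch1 line, from 6 and 66 reads over the wells of each line. The ratio in RPM was 15.9, with an exact 95% counting interval from 6.94 to 45.0, and the fitted log2 difference was 3.92 (SE 0.46, edgeR adjusted p = 9.45e-11), or 1.09 in limma on log2(RPKM + 1).

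The 6 genes under 30 reads were not tested. Their highest value in any well was 1.01 RPKM, for Tcap, the titin cap protein, in the C2C12-Notch1 well with HEK-control. Actn2, the main cardiac and slow-fibre alpha-actinin, had 0 reads in the C2C12-Notch1 wells with HEK-control and HEK-Jag1WT. At these depths a count of 0 in 1 well allows up to 0.377 to 1.33 RPM, taking 3 reads as the limit.

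Counted together, the 42 genes made up a larger part of the mouse reads in the Notch1 line. They took 2633, 2664 and 2717 RPM in the control-line wells and 4252, 4123 and 4231 in the Notch1-line wells, means of 2671 ± 42.9 and 4202 ± 69.3 (SD, n = 3), a ratio of 1.57. On summed RPKM, which gives long genes no extra weight, the ratio was 1.74. Without Des and Tpm1 the sums were 975 ± 60.6 and 1831 ± 46.2 RPM (SD, n = 3). The make-up of this pool differed too. Des took 46.2% ± 2.51 of the member reads in the control line and 19.4% ± 1.66 in the Notch1 line (SD, n = 3). Tpm1 took 17.3% ± 0.592 and 37.1% ± 2.09 in the same order, so the leading gene changed from Des to Tpm1.

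**Figure D3:**
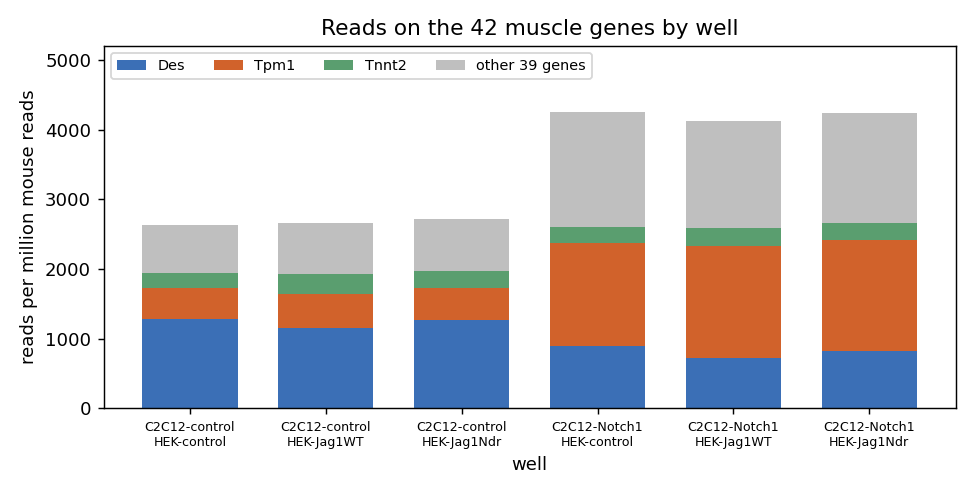
Stacked bars of mouse RPM for Des, Tpm1, Tnnt2 and the other 39 genes in each of the 6 wells. The Notch1-line bars are taller (4123 to 4252 against 2633 to 2717), the Des segment is smaller in them and the Tpm1 segment larger.

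Because paralogues of a family did not differ equally, the share of each in its family's summed RPKM differed between the lines. A family here holds only its genes among the 42 and leaves out non-muscle paralogues. In the control line Myh9 stood at 230, 253 and 244 RPKM, Myl12a at 339, 332 and 341 RPKM and Tpm4 at 641, 646 and 604 RPKM. Tnnt2 made up 89.3% ± 1.92 of troponin T in the control line and 71.1% ± 2.50 in the Notch1 line, while Tnnt1 went from 3.87% ± 0.389 to 13.4% ± 1.58 and Tnnt3 from 6.87% ± 1.71 to 15.4% ± 1.61 (SD, n = 3 wells a line for every share here). Embryonic Myh3 made up 81.3% ± 1.91 of the listed heavy chains in the control line and 63.8% ± 1.89 in the Notch1 line. Adult Myh1 went from 14.05% ± 3.50 to 23.8% ± 1.68 of them, and Myh4 from 1.58% ± 0.987 to 7.35% ± 0.445. Myh7, the slow and cardiac heavy chain, took 2.69%, 1.85% and 1.79% in the control-line wells and 2.36%, 6.48% and 3.16% in the Notch1-line wells, which overlap. Mylpf went from 82.5% ± 1.47 to 89.1% ± 0.583 of the listed light chains, and Myl4 from 11.6% ± 2.01 to 6.39% ± 0.218. Acta1 went from 92.8% ± 1.26 to 97.7% ± 0.138 of Acta1 and Actc1 together. The slow forms did not share a direction: Tnni1 went from 66.4% ± 1.13 to 58.4% ± 1.47 of troponin I, and Tnnc1 from 74.5% ± 4.47 to 82.4% ± 1.13 of troponin C. Of 20 shares computed, 17 gave a two-sided exact permutation p of 0.1, the smallest that 3 wells against 3 can give, and 0.118 after Benjamini-Hochberg adjustment, so this design cannot pass 0.05. Shares within a family are not independent of each other.

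**Figure D4:**
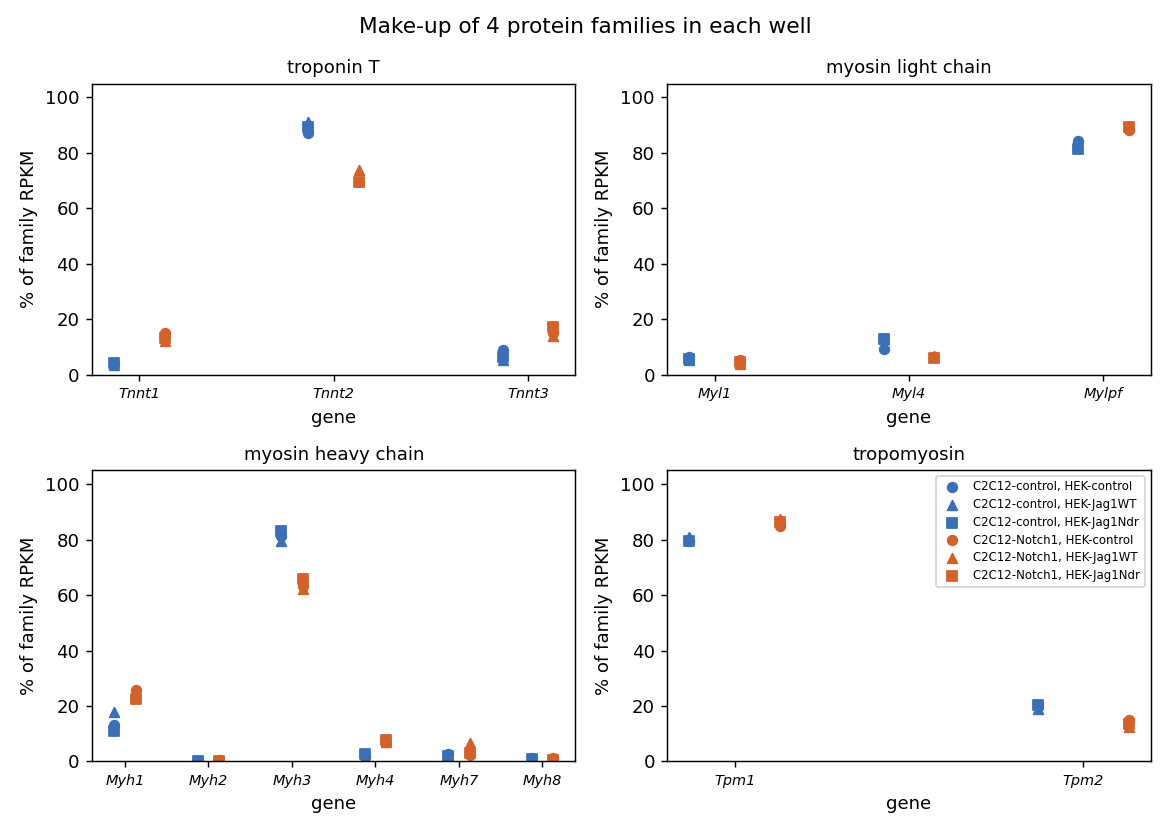
Percent of the family's summed RPKM taken by each gene in each of the 6 wells, for troponin T, myosin light chains, myosin heavy chains and tropomyosin. Each family holds only its genes among the 42. Tnnt2 and Myh3 take a smaller share in the Notch1-line wells than in the control-line wells, and Tnnt1, Tnnt3, Myh1 and Myh4 a larger one.

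The mouse and human cells shared a well, and the Notch1-line wells held 2.03 ± 0.321 human reads per mouse read against 1.01 ± 0.110 in the control-line wells (SD, n = 3). The sources used here do not say how reads were assigned to a species, so the abundance of the human orthologues is given beside the mouse values. All 42 had a row in the human table, 26 with under 30 reads, and 8 reached a mean of 1 RPKM. Of the 29 genes higher in the Notch1 line, 20 had human reads under 10% of their mouse reads. MYLPF had 5 reads against 2871 for Mylpf, TNNC1 18 against 1220 for Tnnc1, and ACTA1 35 against 2622 for Acta1, all over 6 wells. Human reads outnumbered mouse reads in 2 of the 29, Tnnt1 (886 for TNNT1 against 606) and Myom2 (1660 for MYOM2 against 888), and also in Tmod1 (424 for TMOD1 against 115). The part of human reads in the mouse values of these genes was not tested.

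Genes outside the 42 that belong to the same structures were read from lists. Their counts stand beside the 28.4% of all tested mouse genes called higher in the Notch1 line and the 29.4% called lower. Of 21 other sarcomere and Z-disc genes, 11 were tested, 8 were higher in the Notch1 line and none was lower, with a median of 1.02. Smpx, a small protein of striated muscle, was 1.92 higher on the log2 scale and Pdlim3 1.49. Of 20 other triad and calcium genes, 16 were tested, with 7 higher, 3 lower and a median of 0.07. Ryr3, the ryanodine receptor of immature muscle, was 5.62 higher, at 0.0488, 0.0421 and 0.00814 RPKM in the control line and 1.47, 1.39 and 1.47 RPKM in the Notch1 line. Under the alternatives its log2 difference ranged from 1.24 to 6.01. Judged from their RPKM and their 261 and 51 reads over the 6 wells, Ryr3 and Smpx fell under the count filter in the control-line wells. A difference upward was thus built into their selection. Whether other genes of these lists passed the filter only through the Notch1 line was not checked. Where that was so, the direction was built into their selection. Bin1, which shapes the transverse tubules, was lower (-0.57). Of 12 endplate and costamere genes 11 were tested, 7 higher, among them Chrng, a subunit of the fetal acetylcholine receptor, at 1.11, and 1 lower, Chrnd at -0.44. Of 10 muscle energy genes 5 were tested and 3 were higher, among them Mb (myoglobin) at 1.96. The medians of the 11 tested genes of the sarcomere list and of the 36 tested genes described above were thus both above 1. The triad list had a median of 0.07, the endplate list 0.25 and the energy list 0.42. Medians above 1 were not particular to sarcomere genes: the smooth muscle markers below had 1.58 (6 tested) and the heart markers 2.14 (2 tested).

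Myogenic regulators and markers of other cell types were read in the same way, beside the same shares of all tested genes. Of 14 regulators 12 were tested, 8 were higher and 1 was lower in the Notch1 line, with a median of 0.42. Myog, which switches on the differentiation programme, was at 12.95, 11.6 and 11.7 RPKM in the control line and 36.7, 23.8 and 38.3 RPKM in the Notch1 line (1.48), Pax7, a satellite cell factor, was 2.08 higher, and Mef2c, a cofactor of the myogenic factors, was lower (-1.20). Smooth muscle markers summed to 258 to 271 RPKM in the control-line wells and 726 to 764 RPKM in the Notch1-line wells. Of 8 such markers 6 were tested, 4 higher (Cnn1 2.96, Acta2 2.30, Tagln 2.25 and Actg2 0.90) and 1 lower (Smtn -0.83). Cnn1 had 222 reads over the 6 wells and stood at 0.757, 0.871 and 1.39 RPKM in the control line. Whether Cnn1 passed the count filter only through the Notch1 line, which would build in its direction, was not checked. Myh11, the defining smooth muscle myosin, had 4 reads over the 6 wells. Acta2 is a paralogue of Acta1, and smooth muscle cells also express Tpm1, Tpm2 and Des. Heart markers summed to 14.4 to 17.8 RPKM in the control-line wells and 22.3 to 28.6 RPKM in the Notch1-line wells, with Nkx2-5 4.03 higher and Myl7, Myl2, Tbx5 and Hand2 at 0 reads. Nppb, named after its values were seen and not tested (48 reads), lay the other way, at 4.50, 2.77 and 2.81 RPKM in the control line and 0.986, 0.568 and 0.167 RPKM in the Notch1 line. Nkx2-5 stood at 0.658, 0.142 and 0.658 RPKM in the control line. Judged from these values and its 169 reads over the 6 wells, Nkx2-5 fell under the count filter in the control-line wells. A difference upward was thus built into its selection. The part of these other programmes in the differences of the 42 genes was not tested.

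The second question was how the same genes stood after 6 h beside the ligand. With HEK-Jag1WT against HEK-control, 1 of the 36 genes passed the test, against 4.46% of all mouse genes tested (2.7% higher and 1.76% lower), and 5 of the 36 had an unadjusted p under 0.05. The share of all mouse genes at an unadjusted p under 0.05 was not counted, here or for HEK-Jag1Ndr below. The median over the 36 was -0.01 on the log2 scale, with a range from -0.55 (Myh4) to 0.53 (Myom1). Tnnt2 was the gene that passed, 0.34 higher (SE 0.067, edgeR adjusted p = 0.000221). It rose from 201 to 270.0 RPKM in the control line and from 208 to 235 RPKM in the Notch1 line. The log2 ratio was 0.45 (95% counting interval 0.32 to 0.57) in the first pair of wells and 0.22 (0.075 to 0.36) in the second, so both lines went up. The call was lost in DESeq2 (adjusted p = 0.0762) and, in edgeR, with that well of the control line left out (adjusted p = 0.259).

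Des lay just outside the threshold in the same comparison. It was at 593 RPKM with HEK-control and 538 RPKM with HEK-Jag1WT in the control line, and at 415 and 339 RPKM in the Notch1 line, differing on the log2 scale by -0.18 (SE 0.055, edgeR adjusted p = 0.0519). The log2 ratios of the single pairs were -0.12 (95% counting interval -0.17 to -0.059) and -0.24 (-0.32 to -0.16). It passed as lower under 7 of the alternatives tried, among them scaling by library size alone (adjusted p = 0.0136). Among those 7 were the fits without C2C12-control with HEK-control (0.0342), C2C12-control with HEK-Jag1Ndr (0.0176) and C2C12-Notch1 with HEK-Jag1Ndr (0.0249). Tpm1 (0.14, edgeR adjusted p = 0.162), Mylpf (0.18, 0.354) and Myh3 (-0.31, 0.152) had an unadjusted p under 0.05 and did not pass the adjusted test.

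With HEK-Jag1Ndr against HEK-control, 0 of the 36 genes passed in edgeR, against 0.528% of all mouse genes (0.431% higher and 0.0968% lower), and 0 passed in DESeq2. At an unadjusted p under 0.05 edgeR counted 4: Tnni1 (0.22), Tnnt2 (0.15), Ttn (-0.26) and Myom1 (0.71). The median over the 36 was 0.07 and the range -0.31 to 0.71, on the log2 scale. For Tnnt2 the value beside HEK-Jag1Ndr was 220.0 RPKM in the control line and 222 RPKM in the Notch1 line, in each line between the HEK-control and HEK-Jag1WT wells. Ttn passed as lower, by 0.52 on the log2 scale (edgeR adjusted p = 0.0493), once the control line's well with this ligand was left out, and stood at 0.15 (0.999) once the Notch1 line's well with it was left out, so its direction depended on 1 well.

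With HEK-Jag1Ndr against HEK-Jag1WT, 0 of the 36 genes passed in edgeR, against 2.03% of all mouse genes (0.686% higher and 1.35% lower), and 0 in DESeq2, with 4 at an unadjusted p under 0.05. Those were Tnnt2 (-0.19), Myh3 (0.29), Ttn (-0.33) and Des (0.14), with edgeR adjusted p values from 0.159 to 0.320. The median was 0.03 and the range -0.33 to 0.76. With the C2C12-control and HEK-Jag1Ndr well left out, Ttn passed here as well (-0.63, edgeR adjusted p = 0.00470), and with the C2C12-Notch1 and HEK-Jag1Ndr well left out it stood at 0.035 (0.995). The comparisons of each Jag1 line with HEK-control share the HEK-control wells, and each of these tests has 2 wells a HEK line.

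**Figure D5:**
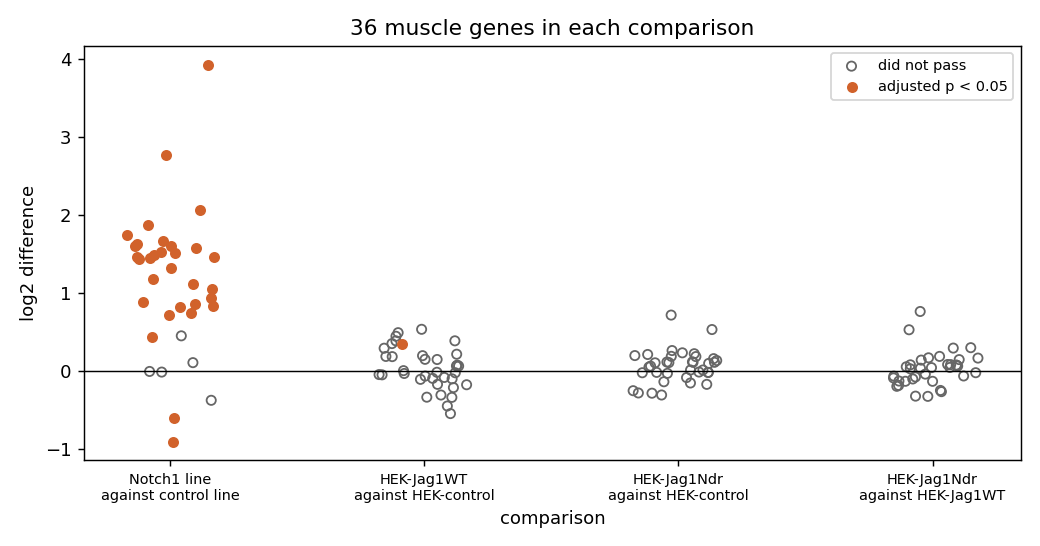
Log2 difference of each of the 36 tested genes in the 4 comparisons, with the genes that passed the test marked and a line at 0. The values spread up to 3.92 between the mouse lines and lie between -0.55 and 0.76 in the 3 comparisons of HEK lines, where only Tnnt2 passed.

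Within 1 mouse line each response rests on a pair of single wells and has no replicate check. The counts below were made for the 36 genes only, with no share of all mouse genes to set beside them. Between HEK-Jag1WT and HEK-control the counting interval lay above 0 in 7 of 36 genes and below 0 in 1 in the control line, and above in 2 and below in 3 in the Notch1 line. Between HEK-Jag1Ndr and HEK-control it lay above 0 in 4 and below in 0 in the control line, and above in 4 and below in 5 in the Notch1 line. Whether the response differed between the mouse lines was not tested, since 1 well per combination leaves no replicate for it.

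The wider muscle lists are read against the same 4.46% of all mouse genes called with HEK-Jag1WT. There Myf5, an early myogenic factor, was 1.34 higher on the log2 scale and Myod1, which drives commitment to muscle, was lower by 0.77, the 2 calls among the 12 tested regulators. Myod1 was at 49.0, 27.8 and 47.3 RPKM in the control line and 91.1, 52.2 and 96.2 RPKM in the Notch1 line, lowest beside HEK-Jag1WT in both. Among other sarcomere and Z-disc genes 1 of 11 passed, Pdlim3, lower by 0.67, a call that DESeq2 did not make (adjusted p = 0.0795). Among other triad and calcium genes 2 of 16 passed, Jph2 (junctophilin, which holds the triad together) 0.49 higher and Bin1 lower by 0.22. The Bin1 call was lost in DESeq2 (adjusted p = 0.436) and in edgeR without C2C12-control with HEK-Jag1WT (0.145), C2C12-Notch1 with HEK-control (0.232) or C2C12-Notch1 with HEK-Jag1WT (0.444). In this comparison Jph2, Myf5 and Myod1 passed under each of the 13 alternatives that tested them. With HEK-Jag1Ndr against HEK-control, 0 of the tested genes in either of those structural lists passed in edgeR, against 0.528% of all mouse genes. Of the 12 tested regulators 1 passed there, Myf5, 0.46 higher (edgeR adjusted p = 0.00148). The myoblast marker Cdh15 passed too, 0.57 higher (edgeR adjusted p = 0.0133). DESeq2 made neither call (adjusted p = 0.712 for Myf5 and 0.547 for Cdh15). With HEK-Jag1Ndr against HEK-Jag1WT, where 2.03% of all mouse genes were called, Myod1 (0.81, edgeR adjusted p = 1.33e-09) and Myf5 (-0.87, 3.99e-12) passed. Pdlim3 (0.44, edgeR adjusted p = 0.0284), Jph2 (-0.32, 0.00185) and Cdh15 (-0.60, 0.00258) passed too. DESeq2 did not make these last calls (adjusted p = 0.999 for Pdlim3, 0.300 for Jph2 and 0.0568 for Cdh15).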

How the data were processed

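Per the labels' protocols, libraries came from polyA RNA of 6 co-culture wells by an unstranded TruSeq preparation. The submitters' processing notes list STAR, mm9 and hg19. No version of STAR, counter, rule for reads matching several genes or separation of species is given in the sources used here. Per gene and well, the authors deposited whole-number read counts and RPKM in 1 table a species, per the file headers.

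In the mouse table of 23905 entries, 472 exact repeats were dropped. The deposited counts were fitted with edgeR 4.0.16 in R 4.3.3 (TMM scaling, filterByExpr, robust quasi-likelihood test) in an additive model of mouse line plus HEK line over all 6 wells. This left 2 residual degrees of freedom, and an effect particular to 1 pair of lines counts as spread. Adjustment (Benjamini-Hochberg, 0.05) ran over all 11365 mouse genes tested, and the common biological coefficient of variation was 3.89%. The script was tested on simulated counts. The deposited RPKM gave the levels and family shares. Pairs of single wells are given as log2 ratios with an exact conditional 95% counting interval, which covers counting error only. Alternatives used DESeq2 1.42.0, limma 3.58.1 on log2(RPKM + 0.1) or log2(RPKM + 1), other scalings and filters, no HEK term, and each well left out.

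Every gene of the list is described with its value in each well if it had at least 30 reads over the 6 wells, and otherwise by its reads. From each other list the counts of calls and up to 3 called genes of largest difference are named, and further genes where they bear on cell type or structure; some genes of these lists are not reported here. The genes, lists and tests were chosen with earlier results of these data known, and the family shares were added after seeing the data.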

Additional observations from a re-analysis of the deposited data

Results flagged for a closer look

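In 2 of the genes, Actn3 and Ryr1, the response to a Jag1 line went in opposite directions in the mouse lines, with counting intervals clear of 0 on both sides. Each value rests on a pair of single wells, so the difference between the lines was not tested, and 36 genes were looked at in 3 comparisons of HEK lines. How often such opposite responses occur over all mouse genes was not counted. Actn3 beside HEK-Jag1WT against HEK-control gave a log2 ratio of 0.401 (95% counting interval 0.17 to 0.64) in the control line and -0.221 (-0.43 to -0.011) in the Notch1 line. Beside HEK-Jag1Ndr, Actn3 gave 0.228 (0.013 to 0.45) in the control line and -0.181 (-0.36 to -0.0074) in the Notch1 line. Both Actn3 responses use the same HEK-control wells, which were the lowest Actn3 well of the control line and the highest of the Notch1 line. Ryr1 beside HEK-Jag1Ndr gave 0.613 (0.11 to 1.14) in the control line, from 133 against 44 reads, and -0.543 (-0.86 to -0.23) in the Notch1 line, from 130 against 263 reads.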

How the results depend on the processing

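Between the mouse lines, 31 genes passed in the reported fit and between 24 and 31 under the alternatives, where the filter of at least 10 CPM in 3 wells tested 27 of the 36. Leaving out 1 well in turn gave 29 to 30. Of 494 values of single genes in this comparison recomputed under an alternative, 13 no longer passed and no gene that passed changed sign. Values changed sign in Tnnt2 (up to 0.043), Xirp1 (up to 0.018) and Mybph (down to -0.070), none of which passed in the reported fit. In limma on log2(RPKM + 1), where the pseudocount compresses low values, differences were smaller for genes of low RPKM, such as Trdn (1.09), Myh4 (0.86), Neb (0.54) and Ttn (0.48). Of the 31 genes, 27 passed under every alternative that tested them, and the others were Tmod1, Myh7, Smyd1 and Unc45b. The ratio of the summed level was 1.57 on reads and 1.74 on RPKM. With HEK-Jag1WT against HEK-control, 1 gene passed in the reported fit, 0 in DESeq2 and in limma with either pseudocount, 2 with scaling by library size only, upper quartile scaling, no filter or the stricter filter, and 0 to 2 with 1 well left out. With HEK-Jag1Ndr, against either HEK-control or HEK-Jag1WT, 0 to 1 passed with 1 well left out. Over all mouse genes the calls were 6569 between the mouse lines and 3585 in DESeq2. For HEK-Jag1WT they were 507, against 151 in DESeq2, 168 and 180 in limma with a pseudocount of 0.1 and 1, and 303 to 580 with 1 well left out, the fewest (303 and 320) without either HEK-Jag1WT well. For HEK-Jag1Ndr against HEK-control they were 60, against 6 in DESeq2, 91 with no filter, 1 in limma with either pseudocount, and 40 to 84. For HEK-Jag1Ndr against HEK-Jag1WT they were 231, against 41 in DESeq2, 7 and 6 in limma, and 138 to 313, the fewest (138, 141 and 150) without either HEK-Jag1WT well or the C2C12-Notch1 well with HEK-Jag1Ndr. The cause of these differences was not tested. A fit without 1 well leaves 1 residual degree of freedom and assumes that the lone well of a combination varies like the others. The reported fit already matches wells by HEK line through its HEK term, without which 30 genes passed between the mouse lines. No paired analysis was possible by replicate number because the labels carry none. Depth limits most the control-line values of Trdn, Myh4 and Myh7, each from at most 9 reads a well.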
